A study of Homo sapiens with 16 samples.

Results

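Expression of 50 genes of DNA replication and mitosis was followed in MCF10A, a non-tumorigenic human mammary epithelial cell line. The members were chosen by their known function, with earlier results of these data known. A member was kept when 2 raised to its deposited log2 value was at least about 10.1 in at least 2 of 16 libraries. All 50 were found and kept, among 13564 genes that passed the same filter. Their lowest value in any library was 5.72 (E2F2) and their highest 14.18 (CENPF), so every member lay above the filter in every library. Of the 50, 23 serve the entry into S phase and DNA synthesis (the S-phase genes) and 27 serve mitosis (the mitotic genes).

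The study used 2 stocks of MCF10A cells. The PHF8 stock overexpresses PHF8, a histone demethylase, and the Mock stock carries the empty vector. Each stock was taken untreated and after TGF-β1 at 5 ng/ml for 24, 48 and 72 h, in medium with epidermal growth factor, cholera toxin, insulin, hydrocortisone and horse serum, with 2 libraries per group. The labels give replicate 1 as the first and replicate 2 as the second sequencing round, and they name no separate cultures, so the p-values measure the spread between these libraries, which may be technical. There is a single stock of each kind, so the PHF8 level cannot be told apart from any other difference between the stocks.

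Before a cell divides, MCM2 to MCM7 are loaded on replication origins by CDC6 and CDT1 as an inactive helicase, which CDC45 and the GINS proteins activate. The E2F transcription factors drive these genes and those of the DNA synthesis machinery late in G1 phase, when cyclin-dependent kinases relieve them of the retinoblastoma family. Genes of mitosis follow later in the cycle and carry a promoter element called the cell cycle genes homology region (CHR), which is read by complexes with the LIN54 protein, with FOXM1 acting as an activator. TGF-β1 is known to slow the division of epithelial cells and to start the epithelial-mesenchymal transition. Work in other cells has placed PHF8 at promoters of genes of the G1 to S transition.

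Promoter sequences are given first, because E2F sites and the CHR are what is known to set the control of the S-phase genes apart from that of the mitotic genes. RefSeq windows of 300 bases, running from 250 bases before to 50 bases after each start site in GRCh38.p14, were available for 41 members (52 windows), all except MCM4, MCM5, CCNE2, FOXM1, UBE2C, AURKA, TTK, BIRC5 and TPX2. The letters TTCCCGC, likewise TTGGCGC, further TTCGCGC, besides TTGCCGC (the E2F core) plus TTTGAA (the CHR) were searched on both strands. An E2F core was found in 17 of 26 S-phase windows (65.4%) and in 8 of 26 mitotic windows (30.8%), beside 13% of all 35116 windows of that length. The CHR letters were found in 1 of 26 S-phase windows (3.85%) and in 17 of 26 mitotic windows (65.4%), beside 15.2% of all windows. The letters CCAAT, also on both strands, were in 73.1% of S-phase and 84.6% of mitotic windows, beside 34.6% of all windows. A match describes the letters only, and members with several start sites contribute several windows.

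The windows of 6 members are printed, 3 S-phase genes that fell at 24 h, the 1 mitotic gene that fell and 2 mitotic genes that were not called, chosen after the values were seen. No S-phase gene without a call is printed. An E2F core was also found in members not called at 24 h, among them CDC6, GINS1, E2F1, POLE, CCNB1, CDK1 and CENPA. The printed windows therefore do not stand for all members, and a link between these letters and the falls was not tested. Capitals mark the E2F core and CHR matches, each window is printed on the strand of its gene, and no E2F core overlaps a CHR. E2F2 (GRCh38.p14 chr1:23531184-23531483, minus strand) has 1 E2F core, 41 bases before the start site. MCM2 (chr3:127598161-127598460, plus strand) has 2, on opposite strands and overlapping each other just after the start site. POLA1 (chrX:24693668-24693967, plus strand) has 3, at 137 and 120 bases before the start site and at base 17 after it. MAD2L1 (chr4:120066799-120067098, minus strand) has an E2F core 105 bases before the start site and a CHR at base 25 after it. PLK1 (chr16:23678639-23678938, plus strand) has a CHR 29 bases before the start site. TOP2A (chr17:40417847-40418146, minus strand) has 2 CHR matches, at 194 and 151 bases before it.
E2F2: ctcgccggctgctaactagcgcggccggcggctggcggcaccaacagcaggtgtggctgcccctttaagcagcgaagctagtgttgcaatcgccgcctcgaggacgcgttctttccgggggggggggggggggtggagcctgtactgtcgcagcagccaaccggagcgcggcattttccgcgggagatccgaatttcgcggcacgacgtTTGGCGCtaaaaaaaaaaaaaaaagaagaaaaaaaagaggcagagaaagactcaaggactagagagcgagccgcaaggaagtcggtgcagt
MCM2: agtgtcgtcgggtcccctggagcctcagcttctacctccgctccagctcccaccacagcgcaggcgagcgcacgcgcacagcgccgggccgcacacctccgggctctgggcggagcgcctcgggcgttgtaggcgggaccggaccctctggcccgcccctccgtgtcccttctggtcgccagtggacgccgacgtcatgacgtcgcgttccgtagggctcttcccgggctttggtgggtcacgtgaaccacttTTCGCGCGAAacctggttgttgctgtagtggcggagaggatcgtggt
POLA1: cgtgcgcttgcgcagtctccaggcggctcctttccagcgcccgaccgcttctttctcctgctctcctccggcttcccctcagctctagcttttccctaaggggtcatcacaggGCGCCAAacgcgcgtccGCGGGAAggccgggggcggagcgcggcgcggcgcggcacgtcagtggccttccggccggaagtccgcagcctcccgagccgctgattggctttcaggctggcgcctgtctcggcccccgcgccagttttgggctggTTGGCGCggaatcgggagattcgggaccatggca
MAD2L1: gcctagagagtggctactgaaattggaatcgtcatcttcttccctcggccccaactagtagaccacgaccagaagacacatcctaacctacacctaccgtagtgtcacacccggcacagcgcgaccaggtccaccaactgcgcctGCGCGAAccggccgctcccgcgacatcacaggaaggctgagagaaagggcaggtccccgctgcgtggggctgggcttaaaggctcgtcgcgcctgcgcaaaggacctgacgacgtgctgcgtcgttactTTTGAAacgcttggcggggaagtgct
PLK1: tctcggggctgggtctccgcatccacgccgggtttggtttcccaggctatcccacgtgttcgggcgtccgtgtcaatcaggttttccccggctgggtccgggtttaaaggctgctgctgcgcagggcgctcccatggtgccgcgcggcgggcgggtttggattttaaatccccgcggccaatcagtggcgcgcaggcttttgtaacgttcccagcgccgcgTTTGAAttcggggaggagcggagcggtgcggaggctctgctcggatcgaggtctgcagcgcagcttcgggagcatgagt
TOP2A: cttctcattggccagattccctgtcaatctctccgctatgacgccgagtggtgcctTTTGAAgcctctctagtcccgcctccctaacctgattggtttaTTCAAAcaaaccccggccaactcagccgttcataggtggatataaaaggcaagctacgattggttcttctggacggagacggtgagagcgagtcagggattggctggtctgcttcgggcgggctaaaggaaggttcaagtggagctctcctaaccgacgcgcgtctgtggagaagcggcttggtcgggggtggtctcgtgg

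As a check of the labels, PHF8 stood between 13.64 and 14.73 on the deposited log2 scale in the 8 PHF8 libraries and between 9.26 and 9.72 in the 8 Mock libraries, a difference of 4.74 ± 0.166 (SE; limma, adjusted p = 1.04e-07). The basal mammary keratin KRT5 stood between 14.35 and 15.64 in all 16 libraries, and of 2 luminal hormone receptor genes PGR was listed at 0 and ESR1 lay between 4.14 and 5.92. Among blood cell markers, PTPRC and CD3E were at or below 0 in every library, while CD14 lay between 5.75 and 7.90 in the TGF-β1 libraries and between 8.41 and 9.64 in the untreated ones. Of 3 endothelial markers, VWF and CDH5 were below 0 and PECAM1 lay between 3.58 and 4.55. The part of EPCAM, CDH1, TP63, CD14, ESR1 and PECAM1 in the results was not tested. On the linear scale the values of a library added up to between 18.8 M and 21.2 M, but they are normalised and the true depth is unknown. Library medians over all genes tested lay within 0.024 of their mean. No pair of libraries held identical values.

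One library stood apart. Replicate 1 of the PHF8 stock at 24 h was the lowest of 16 libraries for 27 of 27 mitotic genes and for 14 of 23 S-phase genes. The mitotic genes lay there at a median of -1.14 relative to each gene's mean over 16 libraries, whereas replicate 2 of the same group had a median of 0.09. At 24 h in the PHF8 stock, replicate 1 was below replicate 2 for 27 of 27 mitotic genes, by a median difference of -1.24 (-1.93 to -0.73). The main counts of calls and most medians that use this library are given with and without it. Counts of direction, of pairs or groups and by role are given only with it, and may depend on it. In a bulk library, fewer dividing cells and less RNA of these genes per cell cannot be told apart.

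**Figure D1:**
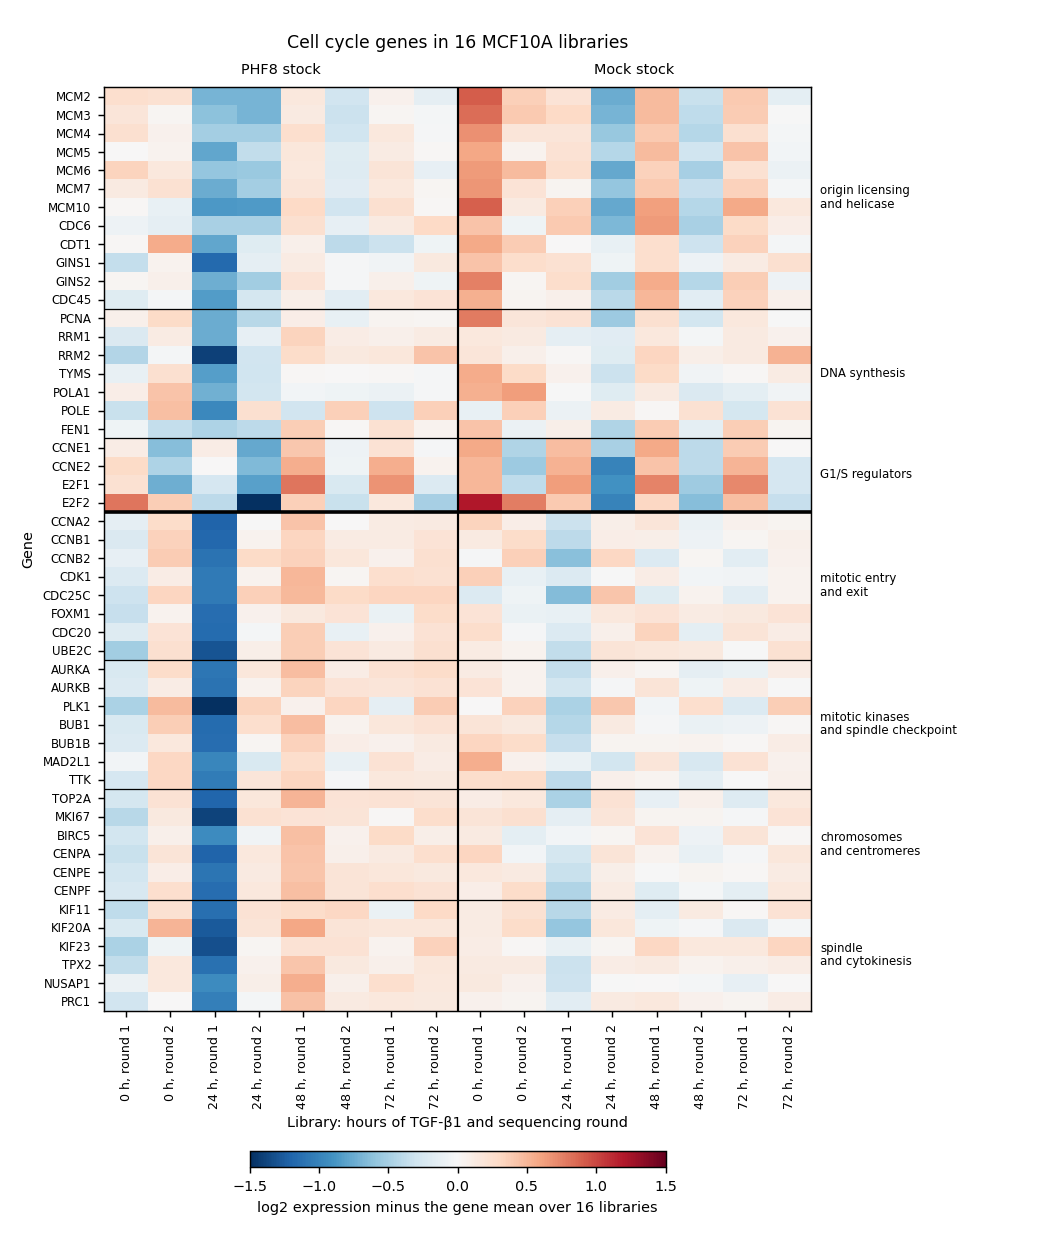
Expression of 50 cell cycle genes (rows, grouped by role) in 16 libraries (columns, PHF8 stock left and Mock stock right, by hours of TGF-β1 with 0 h untreated, and by sequencing round). Colour gives the log2 value minus the gene's mean over the 16 libraries, with values beyond ±1.5 drawn in the end colours. At 24 h the S-phase genes above the thick line have medians of -0.73 and -0.49 in PHF8 replicates 1 and 2 and of 0.21 and -0.52 in Mock replicates 1 and 2, and the mitotic genes below it are lowest in PHF8 replicate 1 at 24 h, with a median of -1.14.

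After 24 h of TGF-β1, 6 of 12 origin licensing and helicase genes and 3 of 7 DNA synthesis genes were called lower over both stocks. The mitotic medians were below 0 in round 1 and near 0 in round 2. Over both stocks, 10 of 23 S-phase genes were lower than in untreated cells at an adjusted p under 0.05 (43.5%), with a median difference of -0.59. Of the mitotic genes, 1 of 27 was lower (3.70%), with a median of -0.36. No member was higher. Among all 13564 genes tested, 33.3% were called in either direction and 16.3% were called lower, with a median of -0.01. The difference was below 0 for 50 of 50 members.

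The licensing and helicase genes had 6 of 12 members called lower. MCM2, a helicase subunit, had values of 10.43 and 10.43 in PHF8 cells and 11.33 and 10.38 in Mock cells at 24 h, against 11.38 and 11.35 in untreated PHF8 cells and 12.03 and 11.48 in untreated Mock cells. All 4 treated libraries lay below all 4 untreated ones, although treated Mock replicate 1 was only just below the lowest of them. The difference was -0.92 ± 0.236 (SE; adjusted p = 0.0123), a level of 0.529 times that of untreated cells on the linear scale. MCM7 differed by -0.75 (adjusted p = 0.0108), MCM6 by -0.81 (0.0184), MCM3 by -0.79 (0.0239) and MCM4 by -0.65 (0.0372). Thus 5 of the 6 subunits of the MCM ring were called, and MCM5 was not (-0.51, adjusted p = 0.082).

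CDT1, which loads the ring on origins, had values of 8.04 and 8.63 in PHF8 cells and 8.82 and 8.70 in Mock cells at 24 h, against 8.83 and 9.37 in untreated PHF8 cells and 9.38 and 9.20 in untreated Mock cells. The treated and untreated libraries did not overlap, the closest being 8.82 and 8.83, and the difference was -0.65 (adjusted p = 0.0234). MCM10, which helps the helicase to start, differed by -0.77 ± 0.286 and was not called (adjusted p = 0.0595). CDC6, the partner of CDT1, differed by -0.35 (adjusted p = 0.325), and the active helicase's GINS1, GINS2 and CDC45 by -0.38, -0.60 and -0.45, none of them called.

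Among the 7 DNA synthesis genes, 3 were called lower. POLA1, the catalytic subunit of the polymerase that makes primers, had values of 8.71 and 9.15 in PHF8 cells and 9.42 and 9.25 in Mock cells at 24 h, against 9.53 and 9.86 in untreated PHF8 cells and 9.96 and 10.05 in untreated Mock cells. The groups did not overlap, and its difference of -0.72 ± 0.121 had the smallest adjusted p of the 50 members (0.00124). PCNA, the sliding clamp of the polymerases, had values of 10.99 and 11.32 in PHF8 cells and 11.95 and 11.19 in Mock cells at 24 h, against 11.81 and 12.02 in untreated PHF8 cells and 12.51 and 11.92 in untreated Mock cells. Here treated Mock replicate 1 lay above the lowest untreated library, and the difference was -0.70 ± 0.184 (adjusted p = 0.0135). TYMS, which makes thymidylate, differed by -0.59 (adjusted p = 0.0148). The ribonucleotide reductase subunits RRM1 and RRM2, the leading-strand polymerase gene POLE and the flap nuclease gene FEN1 had differences between -0.41 and -0.26 and were not called.

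Of the 4 regulators of the G1 to S step, 1 was called lower. E2F2, an activating E2F factor, had values of 6.92 and 5.72 in PHF8 cells and 7.71 and 6.32 in Mock cells at 24 h, against 8.12 and 7.69 in untreated PHF8 cells and 8.52 and 8.09 in untreated Mock cells. It was lower in 4 of 4 pairs of the same stock and round, by -1.44 ± 0.382 (adjusted p = 0.0146), a ratio of 0.369, although treated Mock replicate 1 (7.71) slightly exceeded untreated PHF8 replicate 2 (7.69). E2F2 and TYMS had the lowest values of the members on this scale, which is not corrected for gene length, and a shrinkage of weak genes would act most on them. E2F1, the relative of E2F2, differed by -0.24 ± 0.447 (adjusted p = 0.721), with 8.47 and 7.91 in PHF8 cells and 9.35 and 7.81 in Mock cells at 24 h, against 8.95 and 7.99 in untreated PHF8 cells and 9.22 and 8.34 in untreated Mock cells. In E2F1 the round separated the libraries more than the treatment did. The cyclin E genes CCNE1 and CCNE2, whose products activate CDK2, differed by -0.07 and -0.23 and were not called.

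**Figure D2:**
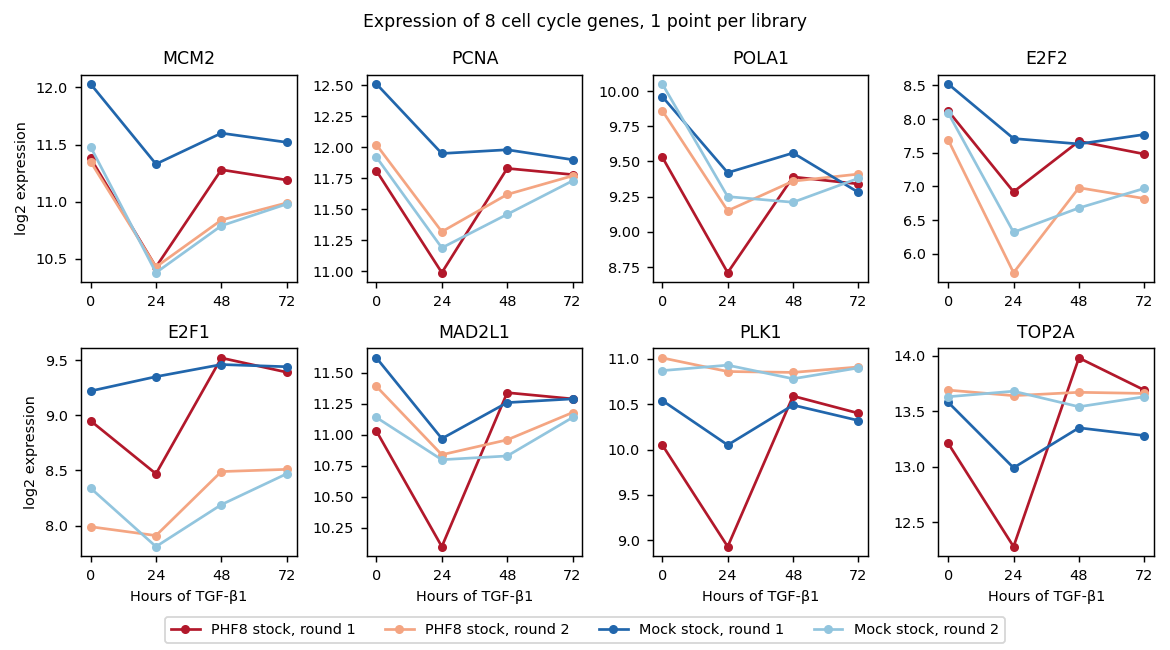
Log2 expression (vertical axes) of 8 cell cycle genes against hours of TGF-β1 (0 h untreated), 1 point per library and 1 line per stock and round. MCM2, PCNA, POLA1 and E2F2 fall at 24 h in all 4 lines; PLK1 and TOP2A have a deep trough at 24 h in PHF8 replicate 1 and stay nearly level in round 2 of both stocks.

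The mitotic genes gave 1 call at 24 h. MAD2L1, which signals unattached kinetochores, had values of 10.10 and 10.84 in PHF8 cells and 10.97 and 10.80 in Mock cells, against 11.03 and 11.39 in untreated PHF8 cells and 11.62 and 11.14 in untreated Mock cells. The groups did not overlap, and the difference was -0.62 ± 0.178 (adjusted p = 0.0208). Of the other kinase and checkpoint genes, PLK1, a kinase of mitotic entry and spindle assembly, had 8.93 and 10.86 in PHF8 cells and 10.05 and 10.93 in Mock cells at 24 h, against 10.05 and 11.01 in untreated PHF8 cells and 10.54 and 10.87 in untreated Mock cells. Only the round 1 libraries of PLK1 lay well below their untreated partners, and its difference of -0.43 ± 0.378 was not called (adjusted p = 0.423). AURKA and AURKB, the Aurora kinases, differed by -0.36 and -0.38 (adjusted p = 0.259 and 0.17).

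No mitotic entry or exit gene was called at 24 h, and their 8 differences ran from -0.51 (CCNA2) to -0.17 (CDC25C). CCNB1, the main mitotic cyclin, differed by -0.49 ± 0.225 (adjusted p = 0.117), its kinase CDK1 by -0.34 ± 0.21 (0.235), and the transcription factor FOXM1 by -0.21 ± 0.214 (0.498). The chromosome and centromere genes ranged from -0.43 (CENPF) to -0.20 (BIRC5) and the spindle and cytokinesis genes from -0.54 (KIF20A) to -0.22 (PRC1), with none called. TOP2A, which untangles replicated chromosomes, had 12.28 and 13.64 in PHF8 cells and 12.99 and 13.68 in Mock cells at 24 h, against 13.21 and 13.69 in untreated PHF8 cells and 13.58 and 13.63 in untreated Mock cells. In round 2 it differed from its untreated partners by -0.05 in PHF8 cells and 0.06 in Mock cells. MKI67, the proliferation marker, differed by -0.32 ± 0.27 (adjusted p = 0.395).

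Within each stock and round, the S-phase genes were lower at 24 h for 22 of 23 genes in PHF8 round 1 (median -0.79), 23 of 23 in PHF8 round 2 (-0.53), 20 of 23 in Mock round 1 (-0.46) and 23 of 23 in Mock round 2 (-0.55). The mitotic genes were lower for 27 of 27 genes in PHF8 round 1 (median -0.87) and 27 of 27 in Mock round 1 (-0.50), but their medians were -0.09 in PHF8 round 2 and -0.02 in Mock round 2. The S-phase medians were thus below -0.4 in both rounds of both stocks, and the mitotic medians in round 1. A lower value in 4 of 4 pairs of stock and round was seen for 19 of 23 S-phase and 13 of 27 mitotic genes, beside 32.7% of all genes. MCM2, MCM7, CDT1, POLA1 and MAD2L1 had all 4 treated below all 4 untreated libraries, which held for 15.2% of all genes; 5 of 50 is no more than that share.

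**Figure D3:**
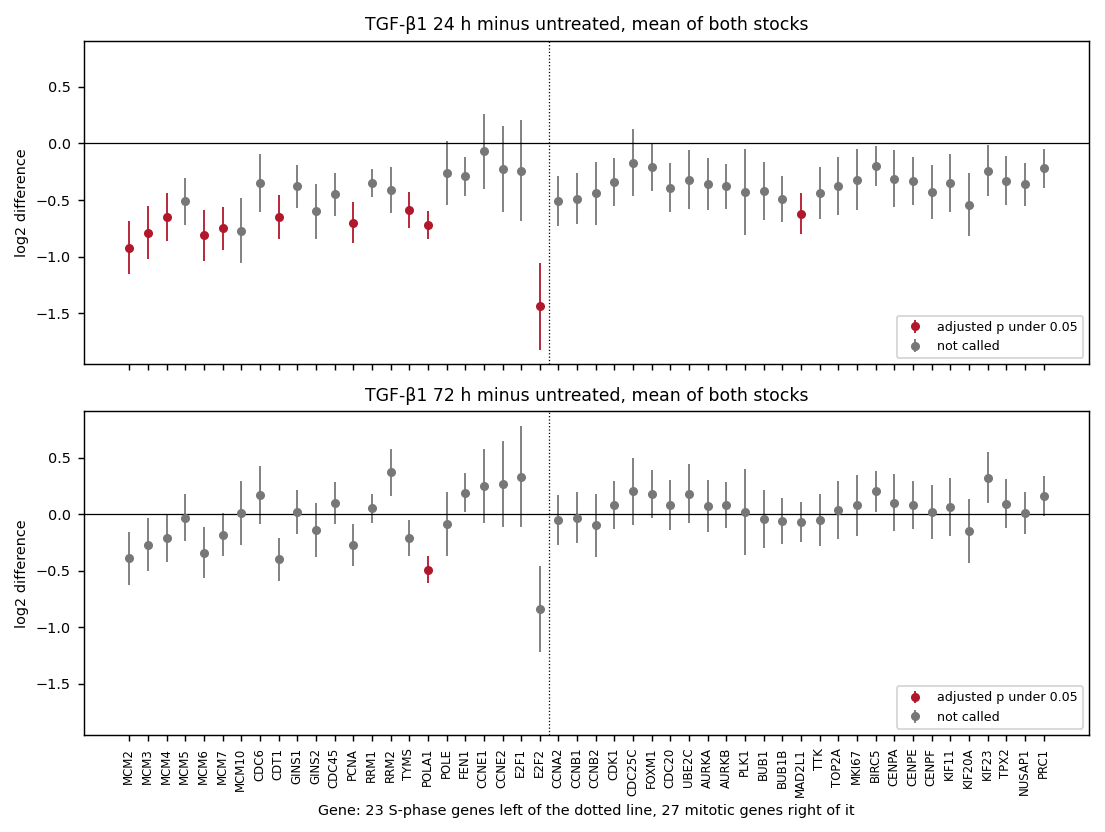
Differences of 50 genes after 24 h (upper panel) and 72 h (lower panel) of TGF-β1, treated minus untreated, as the mean of both stocks on the log2 scale. Points are the estimates, bars their SE and red the genes with an adjusted p under 0.05, 11 at 24 h and POLA1 alone at 72 h. At 24 h all points lie below 0.

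With the sequencing round as a block, 16 S-phase and 2 mitotic genes were lower at 24 h, beside 49.5% of all genes called in either direction. The added S-phase genes were MCM5, MCM10, GINS2, CDC45, RRM1 and FEN1, and the added mitotic gene was BUB1B. With a block for the round within each stock, 20 S-phase and 4 mitotic genes were lower, beside 53.8% of all genes called in either direction. All shares given beside fits with a block count both directions. They are therefore larger than a share of lower genes would be. Without PHF8 replicate 1 at 24 h, 7 S-phase genes and no mitotic gene were lower, with medians of -0.46 and -0.04, beside 13.8% of all genes called lower. In that reduced set the block gave 10 S-phase genes and MAD2L1 as lower, beside 43.2% of all genes called, and the block within each stock gave 15 and MAD2L1, beside 48.5%. Without replicate 2 of the same group, 11 S-phase and 26 mitotic genes were lower, with medians of -0.65 and -0.67, beside 13.7% of all genes called lower.

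MCM2, MCM7 and POLA1 kept their calls whichever of the 16 libraries was left out. The other 8 called genes lost theirs without replicate 2 of Mock at 24 h, which left 3 calls beside 24.0% of all genes, and 7 of them without replicate 1 of untreated Mock, which left 4 beside 27.0%. Leaving out untreated PHF8 replicate 2 left 6 calls beside 24.0%. MAD2L1, CDT1, TYMS and MCM4 lost their calls without PHF8 replicate 1 at 24 h.

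After 48 and 72 h the median differences from untreated cells over both stocks were near 0, but the S-phase medians differed by stock and round. Over both stocks, 16 of 23 S-phase genes were below 0 at 48 h and 13 of 23 at 72 h. At 48 h, 1 of 50 members was called, POLA1 (-0.47 ± 0.121, adjusted p = 0.0124), beside 31.2% of all genes, and the medians were -0.14 for the S-phase and 0.08 for the mitotic genes. At 72 h POLA1 was again the 1 member called, beside 27.4% of all genes, with medians of -0.09 and 0.07. All 3 times share the untreated libraries, so their differences are not independent. At 48 h the POLA1 call was lost without untreated PHF8 replicate 2 or without Mock replicate 2 at 48 h, while 2 members were called without untreated PHF8 replicate 1 (beside 28.3% of all genes) or without either PHF8 library at 24 h (31.4%), and 3 without Mock replicate 1 at 48 h (30.6%). At 72 h, 3 members were called when either PHF8 library of the 24 h group was left out, beside 27.5% of all genes, POLA1 as lower and RRM2 and KIF23 as higher.

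POLA1 had values of 9.34 and 9.41 in PHF8 cells and 9.28 and 9.38 in Mock cells at 72 h, against the untreated 9.53 and 9.86 in PHF8 cells and 9.96 and 10.05 in Mock cells. The 4 treated libraries lay within a narrow span below all untreated ones, which held for 14.7% of all genes, and the difference was -0.49 ± 0.121 (adjusted p = 0.011). E2F2 differed by -0.84 ± 0.382 at 72 h, lower in 4 of 4 pairs and not called (adjusted p = 0.127), but called with the round as a block (0.00128). MCM2 differed by -0.39 ± 0.236 (adjusted p = 0.257, or 0.045 with the block). With the block, 5 members were called at 48 h (MCM2, MCM3, MCM6, POLA1 and E2F2), beside 47.7% of all genes, and these 3 at 72 h, beside 43.7%.

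At 72 h, 8 members were lower in 4 of 4 pairs of stock and round, namely MCM2, MCM3, MCM4, MCM6, CDT1, PCNA, POLA1 and E2F2, beside 29.2% of all genes. All 8 are S-phase genes, and CDT1 had the largest difference among the licensing genes (-0.40 ± 0.192, adjusted p = 0.149). Higher in 4 of 4 pairs were CCNE2, E2F1, BIRC5 and KIF23, beside 28.1% of all genes, and none of them was called. Neither count, the lower or the higher, is more than the share of all genes. E2F1 had 9.39 and 8.51 in PHF8 cells and 9.44 and 8.47 in Mock cells at 72 h, a difference of 0.33 ± 0.447 (adjusted p = 0.646). E2F1 and E2F2, both activators of S-phase genes, thus had differences of opposite sign at 72 h, neither of them called in the unblocked fit. With a block for the round within each stock, 9 members were called, E2F1 (adjusted p = 0.0323) and FEN1 (0.0415) as higher and 7 S-phase genes as lower, beside 47.9% of all genes.

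The other members named at 72 h were not called. RRM2, the regulated subunit of ribonucleotide reductase, differed by 0.37 ± 0.206 (adjusted p = 0.216) and RRM1 by 0.05. PCNA differed by -0.27 ± 0.184 (adjusted p = 0.317), MCM10 by 0.01 ± 0.286, CCNE1 by 0.25 and CCNE2 by 0.27 ± 0.38 (0.651). In the mitotic roles, CCNB1 differed by -0.03 ± 0.225, CDK1 by 0.08 ± 0.21, CDC25C by 0.20, FOXM1 by 0.18 ± 0.214, AURKA by 0.07 and AURKB by 0.08. PLK1 differed by 0.02 ± 0.378, MAD2L1 by -0.07 ± 0.178, TOP2A by 0.04 ± 0.256, MKI67 by 0.08 ± 0.27, CENPA by 0.10, CENPF by 0.02 and BIRC5 by 0.20. KIF23, a motor of cytokinesis, differed by 0.32 ± 0.225 (adjusted p = 0.328), the microtubule bundler PRC1 by 0.16 and NUSAP1 by 0.01. With all 16 libraries, none of the mitotic genes had an adjusted p under 0.05 in the unblocked or the blocked fits at 72 h.

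**Figure D4:**
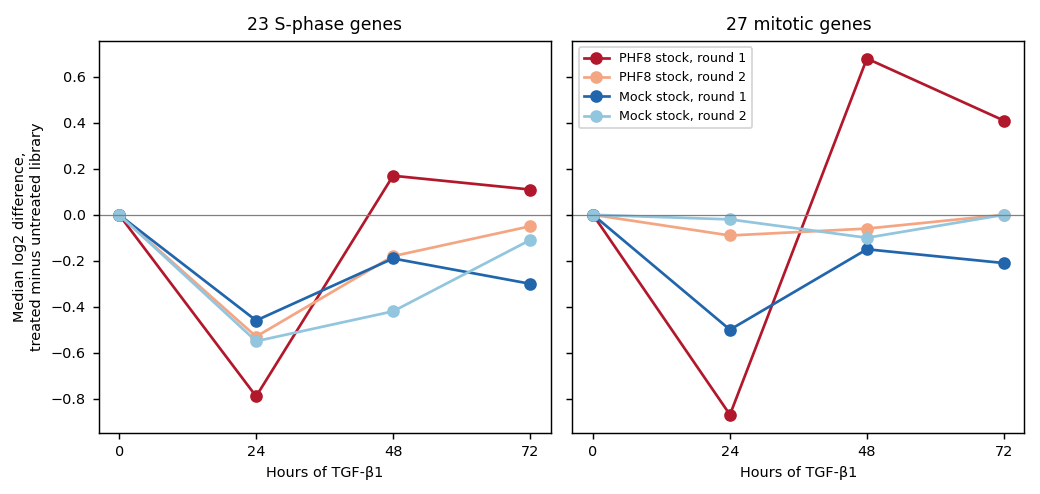
Median log2 difference from the untreated library of the same stock and round (vertical axis) against hours of TGF-β1, for 23 S-phase genes (left) and 27 mitotic genes (right), 1 line per stock and round. The S-phase medians at 24 h lie between -0.79 and -0.46 in all 4 lines; the mitotic medians are low at 24 h in round 1 and near 0 in round 2, and PHF8 round 1 stands above 0 at 48 and 72 h.

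The later times differed between libraries. At 48 h the S-phase median was 0.17 in PHF8 round 1, -0.18 in PHF8 round 2, -0.19 in Mock round 1 and -0.42 in Mock round 2. At 72 h it was 0.11, -0.05, -0.30 and -0.11 in the same order. In PHF8 round 1 the mitotic median was 0.68 above untreated at 48 h and 0.41 at 72 h, with 27 of 27 genes higher at both times, while in PHF8 round 2 and in Mock rounds 1 and 2 it lay between -0.15 and -0.06 at 48 h. The untreated PHF8 replicate 1 library, against which these differences are taken, was itself below replicate 2 for 27 of 27 mitotic genes (median -0.49). PHF8 replicate 1 at 48 h was the highest of 16 libraries for 19 of 27 mitotic genes. TOP2A, for example, had 13.98 and 13.67 in PHF8 cells at 48 h and 13.35 and 13.54 in Mock cells.

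A direct comparison of 72 h with 24 h was added after the values were seen. The difference was above 0 for 50 of 50 members, with medians of 0.47 for the S-phase and 0.42 for the mitotic genes. None was called, although 15 members had an unadjusted p under 0.05, and 4 of 13564 genes were called in all (0.0295%). With the round as a block 1 member was called (FEN1, beside 0.892% of all genes), and with a block for the round within each stock 18 were, 17 S-phase genes and MAD2L1, beside 7.27% of all genes. Without PHF8 replicate 1 at 24 h the medians were 0.46 for the S-phase and 0.11 for the mitotic genes, with no call, and without replicate 2 of that group they were 0.51 and 0.74, with 2 calls beside 0.0442% of all genes. Without replicate 1, the block gave no call and the block within each stock 4 (MCM2, MCM7, MCM10 and FEN1), beside 1.08% of all genes.

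Taken by stock, the calls were few. At 24 h POLA1 was the 1 member called in the PHF8 stock (-0.77 ± 0.171, adjusted p = 0.0162), beside 11.7% of all genes, and likewise in the Mock stock (-0.67 ± 0.171, adjusted p = 0.0219), beside 17.3%. With the round as a block, 11 members were lower in the PHF8 stock, beside 29.3% of all genes called in either direction. In the Mock stock 9 were lower, beside 35.9% called in either direction. MCM2, for instance, differed by -0.93 ± 0.333 in PHF8 cells and by -0.90 ± 0.333 in Mock cells, and E2F2 by -1.59 ± 0.541 and -1.29 ± 0.541. In the PHF8 stock the POLA1 call was lost without replicate 1 at 24 h or without untreated replicate 2, and 27 members were called without replicate 2 at 24 h, beside 6.10% of all genes. The mitotic median in that stock was 0.15 without replicate 1 and -1.11 without replicate 2, and without replicate 1 the block gave E2F2 as the 1 member called, beside 17.6% of all genes. In the Mock stock the call was lost without either untreated replicate or without replicate 2 at 24 h, and 5 members were called without replicate 1 at 24 h, beside 11.9% of all genes.

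In the PHF8 stock limma called no member at 48 h, beside 12.6% of all genes, or at 72 h, beside 9.39%, and none had an unadjusted p under 0.05 at either time. In the Mock stock POLA1 was called at 48 h, by -0.62 ± 0.171 (adjusted p = 0.0294), beside 17.3%, and at 72 h, by -0.67 ± 0.171 (0.0233), beside 14.4%. Both Mock calls were lost without either untreated Mock library and without replicate 2 of that time, and the 72 h call also without replicate 1. With the round as a block, FEN1 (0.41, adjusted p = 0.041) and E2F1 (0.53, adjusted p = 0.0479) were higher in the PHF8 stock at 48 h, beside 28.2% of all genes called, and at 72 h E2F2 was lower (-0.75, adjusted p = 0.0312), beside 23.4%. In the Mock stock the block gave 5 lower members at 48 h (MCM2, MCM3, MCM6, POLA1 and E2F2), beside 34.9% of all genes called in either direction. At 72 h it gave 2 (POLA1 and E2F2), beside 31.5% called in either direction. Tested jointly over the 3 times, the difference between the responses of both stocks called 0 of 50 members and 0 of 13564 genes by limma, with or without the block. In the unblocked test 60 genes and no member had an unadjusted p under 0.05. That is far below the share of 0.05 that would arise with no difference in any gene, so this test was conservative. Its lack of calls does not show that the stocks responded alike.

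Between the stocks themselves no member was called at an adjusted p under 0.05, which does not show that the stocks were alike. As the mean of 4 conditions, 0 of 50 members were called, beside 1.69% of all genes, and 1 (GINS1) had an unadjusted p under 0.05. Under the block there was again no call, beside 9.11% of all genes, and 7 members had an unadjusted p under 0.05. The PHF8 value was below the Mock value for 41 of 50 members, with medians of -0.19 for the S-phase and -0.07 for the mitotic genes. The 3 largest differences were in MCM10 (-0.38 ± 0.202, adjusted p = 0.386), GINS1 (-0.35 ± 0.137, 0.239) and MCM3 (-0.32 ± 0.165, 0.37). Without PHF8 replicate 1 at 24 h no member was called, and the medians were -0.18 for the S-phase and 0.09 for the mitotic genes. Without replicate 2 of that group, 3 members were called as lower, beside 2.11% of all genes, and the medians were -0.23 and -0.21.

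Among untreated cells the PHF8 value was below the Mock value for 49 of 50 members. Limma called none of them, beside 0.00737% of all genes, and none had an unadjusted p under 0.05 (3 with the block). The largest differences were again in MCM10 (-0.57 ± 0.405), MCM3 (-0.51 ± 0.331) and GINS1 (-0.51 ± 0.273), with an adjusted p of 0.993 for each. MCM10 had 9.49 and 9.36 in untreated PHF8 cells, against 10.37 and 9.61 in untreated Mock cells. GINS1 had 9.34 and 9.75, against 10.13 and 9.97. In both genes most of the gap came from round 1.

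By round, the stock difference went different ways. In round 1 the untreated PHF8 library was lower for 23 of 23 S-phase genes (median -0.53) and 27 of 27 mitotic genes (-0.47), and in round 2 for 16 of 23 (-0.11) and 6 of 27 (0.09). At 24 h the round 1 medians were -0.88 and -0.81, with all 50 members lower in the PHF8 library, and the round 2 medians were 0.05 and -0.02. At 48 h the mitotic genes were higher in PHF8 cells for 27 of 27 genes in round 2 (0.13) and 25 of 27 in round 1 (0.30). With 1 PHF8 and 1 Mock library in each round and condition, a single pair gives no error of its own, so tests use both rounds. At 24 h limma called no member between the stocks, beside 0.00737% of all genes, and 3 had an unadjusted p under 0.05 (8 with the block). Without PHF8 replicate 1 the 24 h medians were -0.27 for the S-phase and 0.20 for the mitotic genes. At 48 h (0.00737%) and 72 h (0.0147%) there was likewise no call, and no member had an unadjusted p under 0.05, with or without the block.

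**Figure D5:**
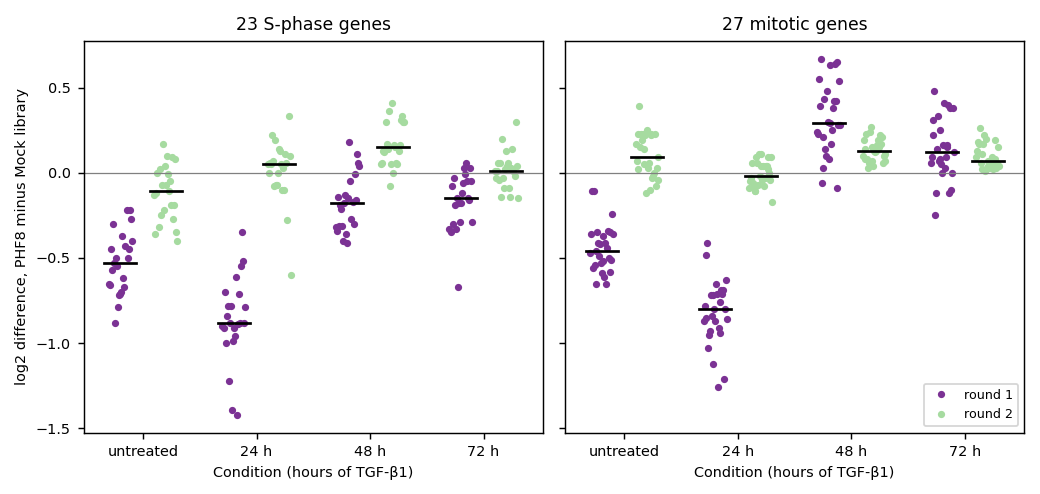
Log2 difference between the PHF8 and the Mock library of the same round (vertical axis) in 4 conditions, 1 point per gene and a black line at the median, for 23 S-phase (left) and 27 mitotic genes (right). In round 1 all genes lie below 0 in untreated cells and at 24 h; in round 2 the medians stay between -0.11 and 0.15.

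Round 1 was above round 2 in 8 of 8 groups for MCM2, MCM3, CCNE1, CCNE2, E2F1 and E2F2, beside 12.5% of all genes, by a mean of 1.01 for E2F1, 0.83 for CCNE2, 0.82 for E2F2 and 0.70 for CCNE1. It was below round 2 in 8 of 8 groups for POLE (-0.58), PLK1 (-0.72) and KIF11 (-0.44), beside 12.9% of all genes. Neither 6 of 50 nor 3 of 50 members is more than the share of all genes. The 6 include all 4 G1 to S regulators, and for E2F1 the gap between rounds exceeded each of its treatment differences.

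Other cell cycle genes, a list of 96 that are no members, had 29 lower and 1 higher at 24 h, with a median of -0.36, beside 16.3% of all genes called lower. In PHF8 cells at 24 h, replicate 1 was below replicate 2 for 90 of these 96 genes (median -0.82), and without replicate 1 there were 12 lower and 1 higher, with a median of -0.17, beside 13.8% of all genes called lower. At 72 h, 4 were lower and 2 were higher, with a median of 0.01, beside 27.4% of all genes called in either direction. The 4 lower genes were the origin recognition genes ORC2 and ORC5, the polymerase delta gene POLD2 and RPA1, which coats single-stranded DNA. E2F7, a repressor among the E2F factors, was higher by 0.65 ± 0.195 at 24 h (adjusted p = 0.0247) and by 0.73 ± 0.195 at 72 h (0.0176). Its values at 72 h were 9.89 and 10.37 in PHF8 cells and 10.30 and 10.49 in Mock cells, against 9.21 and 9.48 in untreated PHF8 cells and 9.90 and 9.55 in untreated Mock cells. The groups overlapped only at 9.89 in a treated and 9.90 in an untreated library. TK1, a thymidine kinase, was higher at 72 h by 0.50 ± 0.134 (adjusted p = 0.0178) and differed by 0.01 at 24 h. CDC25B, a phosphatase that activates CDK1, was lower at 24 h by -1.16 ± 0.297 (adjusted p = 0.0122) and differed by -0.86 ± 0.297 at 72 h (0.052, or 0.00125 with the block). The fork protection gene TIPIN (-1.03) and CDC25A (-0.76), a phosphatase of CDK2, were lower at 24 h. Without PHF8 replicate 1 at 24 h, E2F7 (0.89), CDC25B (-0.85) and TIPIN (-1.10) were still called at that time, and CDC25A was not (-0.77, adjusted p = 0.0843). At 72 h TIPIN (-0.42), CDC25A (-0.38) and CLSPN (0.47), which serves the replication checkpoint, were not called.

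Of 24 regulators upstream of these genes, 22 were tested. The kinase inhibitor genes CDKN2A and CDKN2B, listed at 0 in every library, did not pass the filter. Among all genes tested, 33.3% were called in either direction at 24 h and 27.4% at 72 h. The shares called among these regulators were near those, so the calls are not particular to this list. MYC, a transcription factor of cell growth, was lower by -1.27 ± 0.174 at 24 h (adjusted p = 0.00034) and by -1.19 ± 0.174 at 72 h (0.000558). It had 11.71 and 11.93 in PHF8 cells and 11.97 and 11.89 in Mock cells at 72 h, against 12.85 and 13.06 in untreated PHF8 cells and 13.26 and 13.08 in untreated Mock cells, so that the groups were well apart. CDK4 was lower at 24 h by -0.85 ± 0.164 (adjusted p = 0.00265) and CDK6, its relative, was higher by 0.72 ± 0.126 (0.00158). Both kinases phosphorylate the retinoblastoma protein with D cyclins. The repressor E2F5 (-0.90), the pocket protein gene RBL1 (-0.42) and the E2F partner TFDP1 (-0.33) were also lower at 24 h, and LIN37 (0.41) and the kinase inhibitor CDKN1A (0.51 ± 0.166, adjusted p = 0.0348) higher. Without PHF8 replicate 1 at 24 h, MYC (-1.38), CDK4 (-0.90), CDK6 (0.80), E2F5 (-0.86) and LIN37 (0.40) were still called, and CDKN1A (0.49, adjusted p = 0.0821), RBL1 (-0.32, 0.139) and TFDP1 (-0.29, 0.06) were not. At 72 h MYC, E2F5 (-0.69) and TFDP2 (-0.27) were lower and CDK6 (0.68), CDKN1A (0.51) and LIN37 (0.40) higher.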

How the data were processed

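Gene values were read from 16 libraries of 8 groups, 2 libraries each. Per the labels' protocols, ribosomal RNA was depleted, libraries were stranded and reads were 50-base pairs. Per the submitters' processing notes, TopHat2 2.0.13, hg19, featureCounts of Subread 1.4.6 and DESeq2 (no version) were used; whether counting used strand is not given in the sources used here. The deposited values are log2 expression; the transformation is not named, and the pattern is that of a regularized log, which compresses differences of weak genes. The true depth is unknown, so no counting intervals are given. A further 4 columns of values, whose names fit none of the samples, were left aside. Of 23368 entries, 28 with date symbols were left out, and 13564 genes had a value equal to at least about 10.1 on the linear scale in at least 2 libraries.

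The values were fitted with limma 3.58.1 in R 4.3.3, with 1 mean per group over 16 libraries, a mean-variance trend and 8 residual degrees of freedom, and p-values were adjusted over all genes by Benjamini-Hochberg. Since the number is the sequencing round per the labels, the pairing was checked: same-numbered libraries deviated together in 28 of 28 pairs of groups (correlation 0.206 to 0.749, median 0.461). Fits with the round as a block (7 residual degrees of freedom) or the round within each stock (6) are therefore given. The method was tested on simulated data for the 72 h difference over both stocks. Of 200 changed genes among 13564, 69.0% were recovered, with 12 false calls. Among unchanged genes, 4.65% had an unadjusted p under 0.05. This outcome covers that comparison only. Named genes are, in each role, the 2 members with the largest and the 1 with the smallest 72 h difference, a list always named, the 3 largest stock differences, and the called members of each list. Some others were added with their values in view. The members, lists and tests were chosen with earlier results of these data known. Promoter windows are RefSeq's on GRCh38.p14, a different build from that of the counts.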

Additional observations from a re-analysis of the deposited data

How the results depend on the processing

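The counts of called members did not move by over 1.5 times with no filter, with a stricter filter at a value of 5, with median centring or without the mean-variance trend. With the replicate block, the counts over both stocks were 18 at 24 h, 5 at 48 h and 3 at 72 h, against 11, 1 and 1 without it, and 1 against 0 for 72 h minus 24 h. In the PHF8 stock the block gave 11, 2 and 1 at the 3 times, and in the Mock stock 9, 5 and 2. With the block within each stock, the counts were 24, 9 and 9 over both stocks, 18 for 72 h minus 24 h, 16, 2 and 3 in the PHF8 stock, and 14, 8 and 5 in the Mock stock. The block gave no call between the stocks and none in the joint test. Added after the data were seen, fits without PHF8 replicate 1 at 24 h gave 11 calls over both stocks, 1 in the PHF8 stock and 0 for 72 h minus 24 h with the replicate block, and 16, 8 and 4 with the block within each stock.

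With each replicate left out in turn, the counts ran over both stocks from 3 to 37 at 24 h, from 0 to 3 at 48 h, from 1 to 3 at 72 h and from 0 to 2 for 72 h minus 24 h. They ran from 0 to 27 in the PHF8 stock at 24 h and stayed at 0 there at 48 and 72 h, and in the Mock stock ran from 0 to 5, from 0 to 1 and from 0 to 1. Between the stocks they ran from 0 to 3 for the mean of 4 conditions and stayed at 0 in each condition and in the joint test. A group left with 1 library was assumed to vary like the others. Signs over the settings were checked only for the 29 members named by the rule. The check covered the mean stock difference and the 24 h and 72 h differences over both stocks. No called value changed sign there. Counting each member and setting as 1 entry, 38 uncalled stock entries, 16 uncalled 24 h entries and 32 uncalled 72 h entries did. The 24 h values of single members were added after the data were seen. The cause of these shifts was not tested. The true depth behind the values is unknown.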
